A study of Drosophila melanogaster with 12 samples.

Results

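The guts and the fat bodies of adult *Drosophila melanogaster* females expressing RNA interference against *pointed* (*pnt*) were set against each other, gene by gene, in a single scaling. Genes were included where their identifier stood in the count sheets of both organs, which held for 10005 of the 11409 genes listed in either sheet, and all 10005 had at least 1 count. The comparison used 6 of the series' 12 polyA RNA libraries: 3 of induced gut (libraries 107, 108 and 109) and 3 of induced fat body (libraries 101, 102 and 103). All flies came from the S106 strain in an outbred white Dahomey background and carried UAS-PntRNAi under S106, a GeneSwitch driver that is active in both gut and fat body and is switched on by the drug RU486. The labels describe females mated for 48 h, parted from males and given 200 µM RU486 over 6 days, and mark the 6 libraries used here as induced. The 3 uninduced libraries of each organ (gut 110, 111 and 112, fat body 104, 105 and 106) carried the same driver and transgene and are marked -RU486, although the treatment label states the same RU486 feeding for every sample. They were taken as uninduced from that mark. No library came from flies given RU486 without an RNAi transgene, so the drug and the knockdown cannot be told apart. Each library was made from organs of 12 pooled flies. The gut was taken without the Malpighian tubules, and the fat body was the abdomen left once gut and reproductive anatomy had been taken out, so it held cuticle, muscle, oenocytes and nerves as well as fat cells. No source used here says whether the pools came from separate cultures, so the p-values measure the spread between these pools.

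The fly midgut is the organ of digestion and uptake. Its enterocytes secrete proteases, amylases and lipases and absorb the products, copper cells acidify a middle stretch, enteroendocrine cells release peptide hormones, and stem cells replace what is lost. The fat body does the work of liver and adipose tissue: it stores triglyceride and glycogen, makes trehalose, lipoproteins and yolk, secretes hormones that report feeding to the brain, and releases antimicrobial peptides into the haemolymph. *pnt* encodes an ETS transcription factor that activates targets of EGFR and Ras signalling, and the fly organs named here are also sites where insulin signalling acts on lifespan.

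Total counts were 5916313 to 8889127 in the gut libraries and 4932359 to 8304564 in the fat body libraries, and genes listed in only 1 of the sheets took 0.195% to 0.215% of them in gut and 0.349% to 0.711% in fat body. Scaling by trimmed mean of M values (TMM) gave factors of 0.809 to 0.883 for gut and 1.09 to 1.28 for fat body. Values below are CPM on that scale, the counts of a gene scaled to a common library size. The biological coefficient of variation was 26.6% over the 6 libraries. Some libraries stood apart from the others of their group. In gut library 107, 47 genes were at least 8-fold above both other gut libraries, among them *Uro*, the urate oxidase of Malpighian tubules, at 136 CPM against 6.13 and 4.72 CPM. In gut library 108 and fat body library 102, 18 and 24 genes were so placed, several of them eggshell genes (*Cp7Fc*, *Cp36*). Genes of the mitochondrial genome took 11.7%, 7.50% and 8.48% of gut counts, and 23.8%, 13.2% and 10.5% of fat body counts, the highest value in library 101. These are pools of RNA from mixed cells, so fewer cells of a type and less RNA per cell cannot be told apart.

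The RNAi target *pnt* itself was higher in induced gut than in induced fat body. It had 25.8, 25.3 and 28.7 CPM in gut, against 7.23, 9.11 and 9.90 CPM in fat body. The organs did not overlap, and the log2 fold change of gut over fat body was 1.59 ± 0.19 (SE, n = 3 each), a 3.02-fold difference (adjusted p = 0.000159, edgeR's quasi-likelihood test with Benjamini-Hochberg adjustment over all genes). An exact two-sided permutation test of the CPM gave p = 0.1, the smallest that 3 against 3 allows. Without induction the organ difference was 1.6 on the log2 scale, and the difference between these organ contrasts was 0.00. No SE is given for it, because the SE used here is not reliable for a value so near 0. How tightly this difference is estimated is therefore not known. The adjusted p of that interaction was 1.0 by edgeR. On the scale of 12 libraries *pnt* had 25.3, 24.9 and 28.2 CPM in induced gut, against 33.0, 35.0 and 27.5 CPM in uninduced gut, and 7.11, 8.96 and 9.73 CPM in induced fat body, against 9.59, 10.2 and 11.8 CPM in uninduced fat body. In both organs the induced and uninduced libraries overlapped. Of the other ETS factors, *Ets98B* had 0.837, 1.53 and 0.945 CPM in gut and 23.2, 20.8 and 28.5 CPM in fat body, a log2 fold change of -4.38 ± 0.29 (adjusted p = 4.01e-06). *Ets96B* (-1.30) and *Ets97D* (-0.75) were also lower in gut. *aop*, the ETS repressor that opposes *pnt*, differed by 0.20, the forkhead factor *foxo* by 0.14 and *Eip74EF* by -0.16, and none of these passed the 10% false discovery rate. *Ets21C* differed by -0.85 without passing, and passed when fat body library 101 was left out (-1.02, adjusted p = 0.0835).

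Genes that differed between the organs were found in large numbers on both sides. At a 10% false discovery rate 2562 genes (25.6%) were higher in gut and 2837 (28.4%) were lower, together 54.0% of genes tested. That share was 43.8% in a fit of all 12 libraries and 44.1% (without gut library 109) to 55.6% (without fat body library 103) on leaving out 1 library. All gut libraries were above all fat body libraries at 27.4% of genes and below them at 30.0%. Counts of list members called, given below, are to be read beside these shares of all genes. Since so many genes passed, a stricter call was used beside it, which also asked for a 4-fold difference: 996 genes (9.96%) were at least 4-fold higher in gut and 893 (8.93%) at least 4-fold lower. The median log2 fold change over all genes was -0.05. The split depended on scaling: with library size alone, 25.7% of calls were higher in gut, against 47.4% with TMM, and the median moved by -0.48. Among genes in both sheets, the larger the difference, the greater was the share of called genes on the gut side. At 16-fold the called genes numbered 520 higher and 297 lower, at 64-fold 340 and 88, and at 256-fold 179 and 12. Of 10005 genes, 6 had 0 counts in all 3 gut libraries and 17 had 0 counts in all 3 fat body libraries. Genes listed in only 1 sheet, 353 in that of gut and 1051 in that of fat body, had been left out. These counts therefore do not show how many genes are confined to 1 organ, and the shares by size leave those genes out too.

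**Figure D1:**
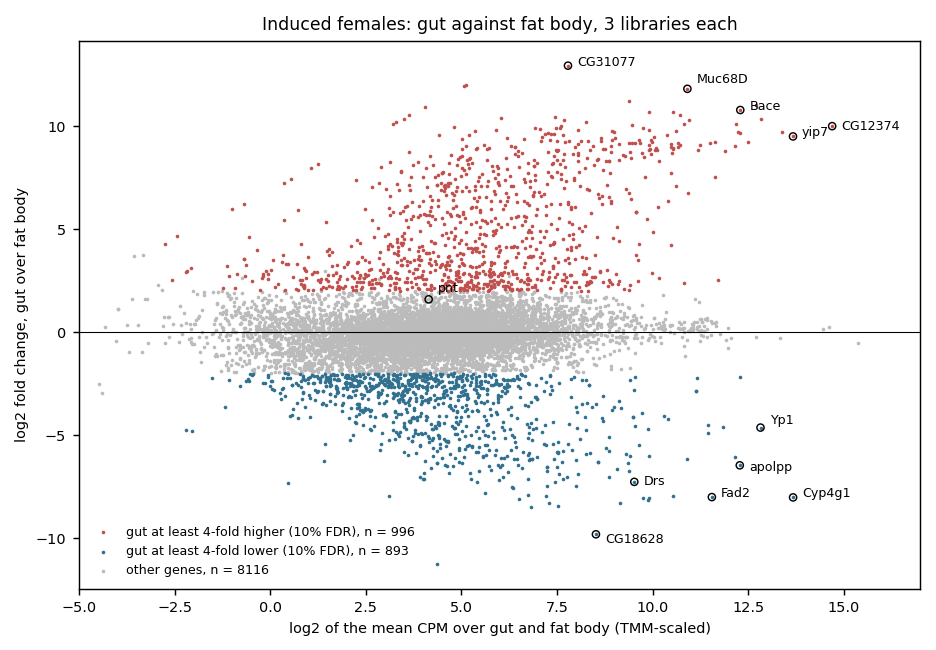
Each point is a gene, with the log2 of its mean CPM over both organs on the x axis and the edgeR log2 fold change of gut over fat body in induced females on the y axis (3 libraries per organ). The 996 genes at least 4-fold higher in gut reach log2 values above 12, while the 893 at least 4-fold lower mostly lie above -9, and pnt sits at 1.59 among genes under 4-fold.

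A few genes took much of each pool. The 10 genes with the most counts took 18.4%, 21.1% and 20.2% of the gut libraries, and a different set of 10, with *mt:lrRNA*, *mt:CoI* and *mt:CoIII* in both, took 26.7%, 18.1% and 18.6% of the fat body libraries. The first gut gene was *CG12374*, with 3.26%, 5.57% and 4.72% of gut counts and at most 0.00906% of any fat body library. It was followed among nuclear genes by the proteases *yip7*, *Jon65Aiii* and *Jon65Aiv*. The first nuclear gene of fat body was *Cyp4g1*, the oenocyte P450 that makes cuticular hydrocarbons, with 0.00801%, 0.00930% and 0.00813% of gut counts and 2.47%, 2.92% and 3.73% of fat body counts. *Yp1*, *apolpp* and *CG2233* came next.

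The 12 genes that stood highest in gut included 3 Jonah proteases, a mucin and an aspartyl protease. *Muc68D*, a mucin, had 4047, 3883 and 3592 CPM in gut and 0.344, 0.569 and 2.11 CPM in fat body, a log2 fold change of 11.81 ± 0.66 (adjusted p = 1.92e-06). *Bace*, an aspartyl protease of the gut, had 9196, 10669 and 10171 CPM in gut and 2.06, 6.64 and 7.90 CPM in fat body (10.79 ± 0.66, adjusted p = 2.76e-06). The organs were separated by more than 3 orders of magnitude at both genes. *CG31077* had 8211 counts over the gut libraries and 1 over the fat body libraries, a ratio of 1.1e+04 with an exact 95% counting interval of 1.97e+03 to 4.34e+05. The transporter *MFS1* had 2639 counts in gut and 2 in fat body, a ratio of 1.76e+03 (interval 488 to 1.46e+04). The intervals cover counting error only. The other 8 of the 12 highest genes, *Jon25Bii* (11.23), *CG34220* (11.01), *CG3906* (10.70), *CG10725* (10.67), *Jon25Bi* (10.53), *CG13325* (10.45), *Jon65Aiv* (10.35) and *CG34324* (10.31), had adjusted p-values of at most 2.01e-05. That the organs did not overlap was part of the rule that picked the 12.

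Trypsins and the chymotrypsin-like Jonah enzymes cut dietary protein in the gut lumen, and 25 of the 26 tested members were at least 4-fold higher in gut, against 9.96% of all genes, with a median log2 fold change of 9.20. Together they had 97465 to 120283 CPM in gut libraries and 234 to 457 CPM in fat body libraries. *yip7* had 20562, 29528 and 27952 CPM in gut and 16.7, 35.6 and 54.9 CPM in fat body (9.50 ± 0.73, adjusted p = 8.94e-06), and *alphaTry* had 12684, 8534 and 6802 CPM in gut and 1.89, 8.44 and 14.2 CPM in fat body (10.13 ± 0.85). The exception was *Ser12*, with 4.82, 0.255 and 0.157 CPM in gut and 181, 221 and 232 CPM in fat body (-7.12 ± 0.85, adjusted p = 0.000165). It lies at 2L 2250431 to 2251275, and 1 tested gene away from *Send1*, which is expressed in the spermatheca and was also lower in gut (-7.29). Without gut library 107 *Ser12* was at -9.86 and *Send1* at -9.60.

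Enzymes for starch, sugar and fat went the same way. Of 13 maltases and amylases 11 were higher and 2 lower (median 8.61). *Mal-A8* had 93.4, 35.8 and 70.7 CPM in gut and 0 counts in every fat body library, which makes it at least 524-fold higher in gut against a floor of 3 counts over the 3 libraries. The exceptions lay within the same family: *Mal-A5* had 3.35, 3.96 and 3.15 CPM in gut and 10.8, 10.4 and 12.1 CPM in fat body (-1.66 ± 0.24), and *Mal-B2* had 1.47, 1.79 and 1.57 CPM in gut and 66.6, 60.1 and 53.4 CPM in fat body (-5.19 ± 0.21). All 9 digestive lipases were higher (median 9.13), including *magro* (*mag*), which digests dietary triglyceride, with 2429, 2998 and 3079 CPM in gut and 2.75, 4.17 and 8.01 CPM in fat body (9.13 ± 0.51, adjusted p = 1.9e-06). The smallest of the 9, *Lip3* (3.27), was not called without gut library 108 (adjusted p = 0.115). All 6 lysozymes were higher (median 8.98), with *LysD* at 12437, 9673 and 12332 CPM in gut and 1.55, 18.1 and 37.0 CPM in fat body. *LysB*, *LysC*, *LysD* and *LysE* are near-identical copies whose reads may be shared, as may those of *Amy-p* and *Amy-d*, so their separate values are uncertain. Of 9 peritrophic matrix and mucin genes 6 were higher (*Peritrophin-15a* 8.99), *Mur18B* was lower (-1.93, or -3.53 without gut library 107, and not called without gut library 109 or fat body library 101), and *Muc96D* (0.86) and *Peritrophin-A* (0.52) did not pass.

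Genes of acidification and uptake were mostly higher in gut. The vacuolar proton ATPase, which copper cells use to acidify the lumen and all cells use in their lysosomes, had 15 of 17 tested subunits higher and 2 lower, with a median log2 fold change of 2.45. *Vha16-1*, the proteolipid of the membrane sector, had 4687, 6187 and 6376 CPM in gut and 784, 1066 and 1097 CPM in fat body (2.55 ± 0.32, adjusted p = 0.000223). Of the 15, 13 lay between 2.20 and 2.91. The 2 lower subunits were *Vha68-1* (-1.19) and *Vha100-1* (-0.48), and *Vha100-1* was not called without gut library 109 or fat body library 102 or 103. *Vha100-4*, a membrane a subunit, had 102, 86.8 and 89.8 CPM in gut and 0.516, 0.759 and 0 CPM in fat body (7.70 ± 0.52). Of 18 genes of sterol, sugar and metal uptake 11 were higher and 3 lower. *Npc1b*, which takes up dietary sterol, had 528, 679 and 691 CPM in gut and 0.344, 0.759 and 1.78 CPM in fat body (9.27 ± 0.48). The copper importer *Ctr1B* (2.94), the multicopper oxidase *Mco1* (4.12) and the metal transporter *Mvl* (0.79) were higher. *Ctr1B* had 202, 52.4 and 46.5 CPM in gut and 13.8, 10.1 and 15.2 CPM in fat body, and was at 1.93 without gut library 107. The ferritin subunits *Fer1HCH* (0.65) and *Fer2LCH* (0.20) did not pass.

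Regulators and hormones of the gut were mostly higher there. Of 11 gut transcription factors 9 were higher and none was lower (median 1.92). *GATAe*, which maintains midgut identity, had 59.5, 44.7 and 50.1 CPM in gut and 2.24, 1.99 and 1.11 CPM in fat body (4.86 ± 0.27, adjusted p = 1.98e-06). *nub* (5.48), *dve* (4.84) and *odd* (4.65) were also at least 4-fold higher, and *cad* (0.55) and the hindgut factor *byn* (-0.04) did not pass. Of 11 enteroendocrine genes 8 were at least 4-fold higher. The peptide hormone *AstC* had 219, 208 and 215 CPM in gut and 0.344, 1.42 and 1.0 CPM in fat body (7.73 ± 0.36), and *NPF* had 61.8, 41.2 and 46.8 CPM in gut and 0, 0.380 and 0.445 CPM in fat body (7.25 ± 0.43). *CCHa2*, a nutrient-dependent peptide that fat body also makes, was lower in gut, with 112, 98.5 and 84.2 CPM against 267, 183 and 345 CPM in fat body (-1.43 ± 0.26). *ITP* was lower too (-1.54). Among 8 intestinal stem cell and enteroblast genes 2 were higher (*peb* 2.23, *E(spl)mbeta-HLH* 2.13) and 4 lower: *Delta* (-0.93), *N* (-1.32), *Su(H)* (-1.61) and *Egfr* (-2.19), the receptor upstream of *pnt*. All 4 also act in tissues other than gut, and *Delta* and *N* lost their calls without any one of libraries 107, 109, 101 or 102 (adjusted p of 0.122 to 0.273).

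Detoxification genes were mostly higher in gut. Cytochrome P450s and glutathione S-transferases modify and conjugate plant toxins, insecticides and drugs, and 23 of 28 tested P450s of the Cyp6, Cyp9, Cyp12 and Cyp28 groups were higher in gut while 5 were lower (median 2.54). *Cyp9b2* had 1846, 2343 and 2443 CPM in gut and 30.5, 25.6 and 41.8 CPM in fat body (6.08 ± 0.34, adjusted p = 1.87e-06). *Cyp6a22* went the other way, with 3.56, 4.60 and 3.46 CPM in gut and 53.2, 41.5 and 45.6 CPM in fat body (-3.57 ± 0.21). The 2 levels of *Cyp6a22* were far apart in every library, as were those of *Cyp9b2*. Of 7 GstD genes 6 were higher, and *GstD3* (-0.33) did not pass. *GstD7* had 472 counts in gut and 3 in fat body, a ratio of 210 (95% counting interval 71.5 to 1.02e+03). Of 12 GstE genes 5 were higher, against 25.6% of all genes, led by *GstE3* (3.62), and 4 lower, against 28.4%, led by *GstE2* (-1.95). The number lower was 1 or 2 on leaving out gut library 108 or 109 or fat body library 102 or 103, and *GstE2* did not pass without 107, 109 or 102 (adjusted p of 0.1 to 0.173).

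**Figure D2:**
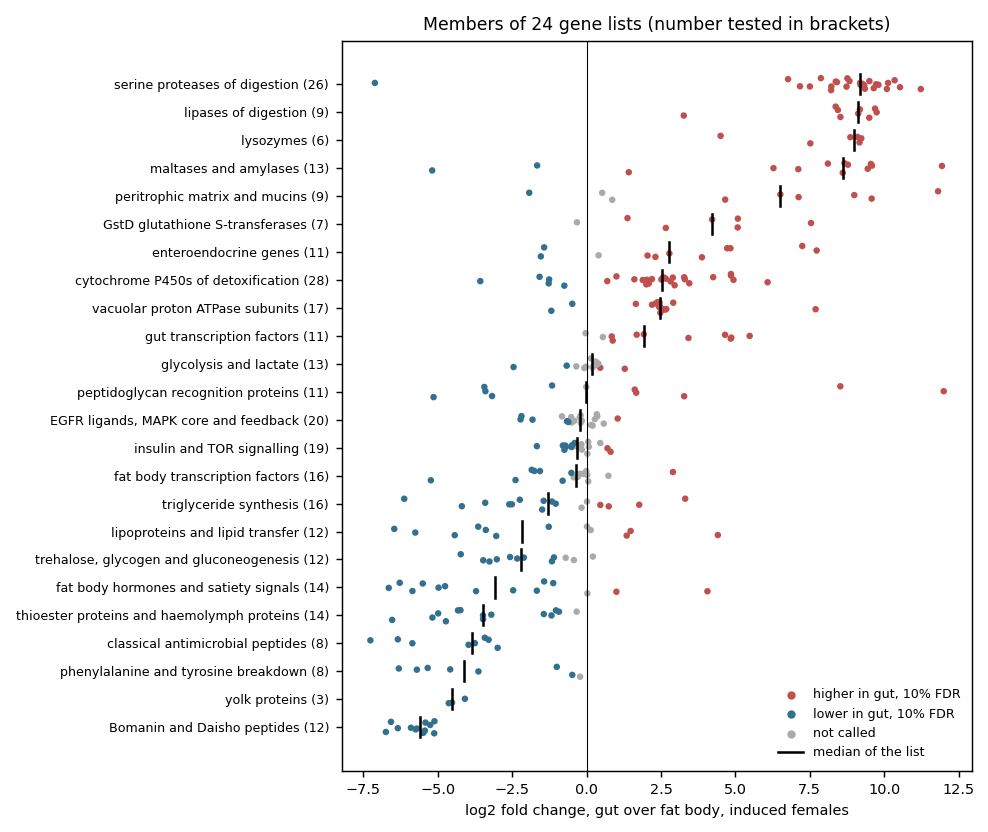
Log2 fold changes of gut over fat body in induced females (x axis, edgeR) for the tested members of 24 gene lists, 1 point per gene, with the list's median as a vertical bar. Medians run from 9.20 for digestive serine proteases to -5.60 for Bomanin and Daisho peptides, while EGFR, insulin and TOR, and glycolysis genes lie around 0.

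Several of the genes that stood lowest in gut act in hydrocarbon synthesis. Of the 12 genes that stood lowest in gut, *eloF* and its neighbours *CG16904*, *CG9459* and *CG9458* lie in 1 run at 3R 9814161 to 9819877 and had log2 fold changes of -8.10 to -7.95. *eloF*, an elongase of hydrocarbon synthesis, had 8.58, 5.87 and 4.72 CPM in gut and 1461, 1498 and 2172 CPM in fat body (-8.07 ± 0.39, adjusted p = 1.16e-06). *Cyp4g1* had 99.0, 105 and 95.6 CPM in gut and 20868, 22802 and 34296 CPM in fat body (-8.02 ± 0.55, adjusted p = 4.6e-06), and the desaturase *Fad2*, which acts in female pheromone synthesis, had 28.7, 20.7 and 20.3 CPM in gut and 4529, 5248 and 8109 CPM in fat body (-8.01 ± 0.45). These are oenocyte genes, and 9 of 11 tested oenocyte hydrocarbon genes were lower in gut. Their sum was 1111 to 1705 CPM in gut and 30682 to 51759 CPM in fat body. *bond*, an elongase, was higher in gut (2.15), and the fatty acid transporter *Fatp1* (-0.28) did not pass. The part of oenocytes in the fat body values was not tested.

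The other genes of the 12 were less well described. *CG18628* had the largest difference, with 1.05, 0.766 and 0.630 CPM in gut and 447, 1224 and 524 CPM in fat body (-9.81 ± 0.59, adjusted p = 2.41e-06). *Sgp* had 0.419, 1.02 and 1.57 CPM in gut and 432, 220 and 449 CPM in fat body (-8.44 ± 0.49). *CG17562* (-8.47), *CG17560* (-8.30), *CG30008* (-7.93) and FBgn0040001 (-8.12), an identifier for which no symbol was found, had adjusted p-values of at most 1.75e-06. *CG17562* and *CG17560* lie side by side on 3R. These 12, too, were picked among genes whose libraries did not overlap.

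All 3 yolk protein genes, which the fat body of females secretes for the oocyte, were lower in gut (median -4.52). *Yp1* had 429, 491 and 762 CPM in gut and 8983, 12451 and 20246 CPM in fat body (-4.63 ± 0.50, adjusted p = 8.72e-05). *apolpp*, the apolipoprotein of the lipid carrier lipophorin, had 114, 90.3 and 129 CPM in gut and 10324, 7018 and 12108 CPM in fat body (-6.46 ± 0.44, adjusted p = 4.65e-06). It lies on chromosome 4. *Apoltp*, the apolipoprotein of the particle that loads lipophorin with gut lipid, was lower in gut as well (-5.76 ± 0.35), as were *Mtp*, which lipidates both (-3.39), and *cv-d* (-4.43). Of 12 genes of lipoproteins and lipid transfer 7 were lower and 3 higher. The highest was *NLaz*, a lipocalin of stress resistance, with 1533, 843 and 799 CPM in gut and 37.5, 58.7 and 52.9 CPM in fat body (4.41 ± 0.36).

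Triglyceride synthesis was split between enzymes. Of 16 members 10 were lower and 4 higher in gut (median -1.30). *FASN1*, the fatty acid synthase of fat body, had 156, 142 and 119 CPM in gut and 1797, 2149 and 3698 CPM in fat body (-4.20 ± 0.37, adjusted p = 2.06e-05). *ACC*, which makes its substrate, was lower in gut (-2.60), and so was *Desat1* (-2.25). The final step, made by 2 unrelated acyltransferases, went either way: *mdy* had 13.2, 7.92 and 10.9 CPM in gut and 133, 85.0 and 120 CPM in fat body (-3.41 ± 0.27), while *Dgat2* had 51.5, 52.7 and 74.6 CPM in gut and 5.51, 6.17 and 6.23 CPM in fat body (3.31 ± 0.21, adjusted p = 3.44e-06). *Gpat4*, at the first step, was higher in gut (1.77) and *mino*, at the same step, lower (-2.51). Of 10 lipid droplet and lipolysis genes 5 were lower and 3 higher, against 28.4% and 25.6% of all genes. *AkhR*, the receptor of the adipokinetic hormone that mobilises fat, had 0.628, 1.15 and 2.20 CPM in gut and 69.7, 77.0 and 131 CPM in fat body (-6.07 ± 0.43). The lipase *bmm* was higher in gut (1.19) and the hormone-sensitive lipase *Hsl* differed by 0.12 without passing. Of 12 fatty acid oxidation genes 6 were higher in gut, against 25.6% of all genes (*Acox57D-p* 2.67, *whd*, the carnitine palmitoyltransferase, 1.42) and *CG4860* lower (-1.43). *CG4860* lost its call without any one of libraries 108, 109, 102 or 103, and the number higher was 4 without 109 or 102 or with library size alone.

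Carbohydrate storage and amino acid breakdown were lower in gut. Of 12 genes of trehalose, glycogen and gluconeogenesis 9 were lower and none was higher (median -2.22). *Tps1*, which makes the blood sugar trehalose, had 20.7, 6.90 and 10.4 CPM in gut and 167, 199 and 338 CPM in fat body (-4.23 ± 0.46, adjusted p = 8.63e-05). *UGP* (-3.48) and *fbp* (-3.02) followed, and *Treh*, the enzyme that splits trehalose, did not pass (0.21). Of 8 genes that break down phenylalanine and tyrosine 7 were lower. *Hn*, phenylalanine hydroxylase, had 8.79, 6.90 and 11.2 CPM in gut and 421, 392 and 586 CPM in fat body (-5.70 ± 0.30, adjusted p = 1.61e-06), and *Tat*, the next enzyme, had 0.837, 0.383 and 1.10 CPM in gut and 51.3, 51.5 and 79.1 CPM in fat body (-6.31 ± 0.36). By contrast 9 of 13 genes of glycolysis and lactate did not pass. *Ldh* (1.28) and *Hex-A* (0.46) were higher in gut, and *Pfk* (-0.67) and *Hex-C* (-2.46) lower. *Hex-A* and *Pfk* were not called without gut library 109 (adjusted p = 0.306 and 0.105), *Pfk* also not without fat body library 103, and *Hex-A* also not without 108, 101 or 102 or with library size alone, where it turned to -0.03. Without fat body library 103, 6 of the 13 were higher and 1 lower.

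Secreted signals and transcription factors of the fat body were counted apart. Of 14 fat body hormones and satiety signals 11 were lower and 2 higher in gut. *Lst* (Limostatin), which suppresses insulin secretion, had 17.8, 8.17 and 6.14 CPM in gut and 1100, 808 and 1278 CPM in fat body (-6.65 ± 0.48, adjusted p = 6.26e-06). *Gbp2*, a growth-blocking peptide that stimulates insulin secretion, had 4.82, 5.24 and 4.88 CPM in gut and 313, 318 and 536 CPM in fat body (-6.28 ± 0.31). *Ilp6*, the insulin-like peptide of fat body, had 0.837, 1.66 and 2.36 CPM in gut and 50.8, 67.5 and 111 CPM in fat body (-5.51 ± 0.42, adjusted p = 9.1e-06). All 3 encode secreted peptides that act on or as insulin. *takeout* (*to*), a feeding-related carrier protein, was higher in gut, with 289, 200 and 205 CPM against 17.2, 11.6 and 13 CPM in fat body (4.06 ± 0.26). Of 16 fat body transcription factors 7 were lower and 1 higher in gut, a share called close to the 54.0% of all genes. The 8 that did not pass included *Hnf4* (-0.11), *usp* (0.02) and *Mondo* (-0.01). The nuclear receptor *svp*, also an oenocyte factor, was lowest, with 0.837, 0.639 and 1.42 CPM in gut and 36.5, 30.6 and 42.7 CPM in fat body (-5.24 ± 0.31). *Hr96*, a nuclear receptor of lipid and xenobiotic metabolism, was higher in gut (2.90).

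**Figure D3:**
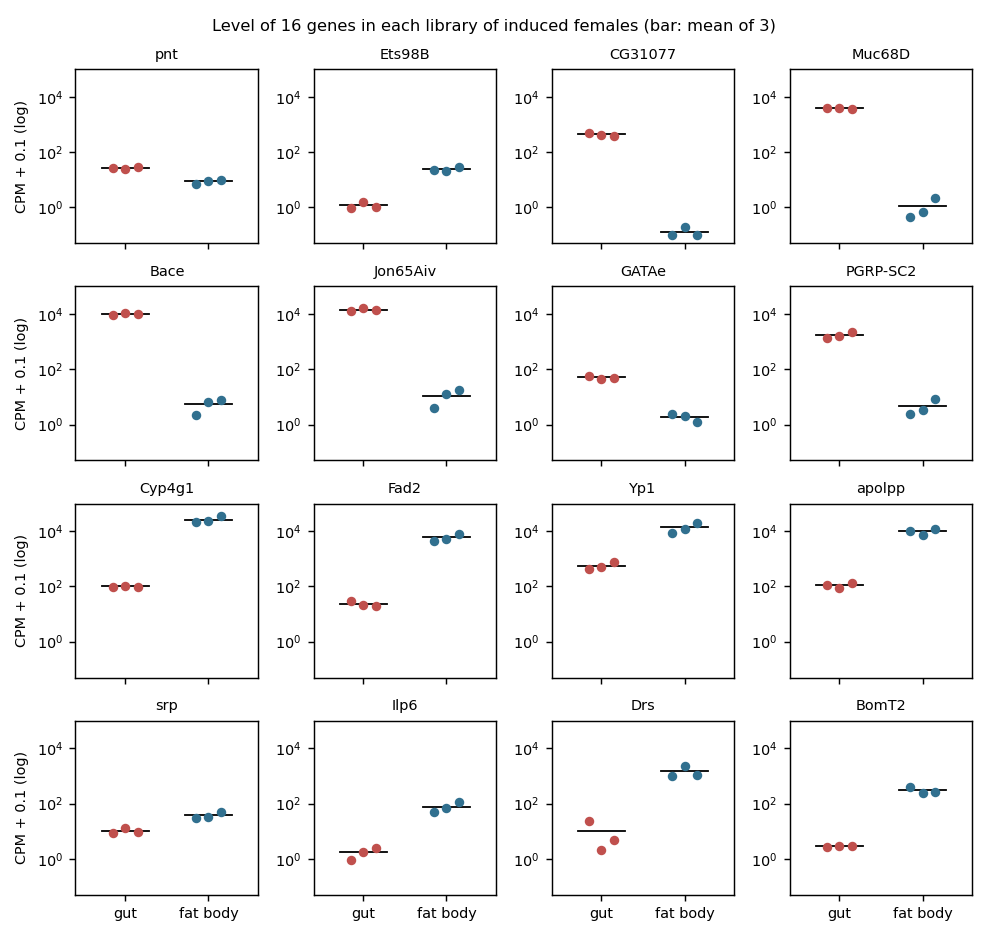
TMM-scaled CPM plus 0.1 on a log axis for 16 genes, with 1 point per induced library (gut left, fat body right) and a bar at the mean of 3. At all 16 genes the points of the 2 organs do not overlap. CG31077 has 395 to 513 CPM in gut and at most 0.0949 CPM in fat body, and Cyp4g1 95.6 to 105 CPM in gut and 20868 to 34296 CPM in fat body.

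Genes of humoral immunity were mostly lower in gut, whereas lysozymes and several amidases that act on bacterial peptidoglycan were higher. All 8 tested antimicrobial peptide genes were at least 4-fold lower in gut (median -3.86), against 8.93% of all genes. *Drs* (Drosomycin), a Toll target, had 22.4, 2.04 and 4.88 CPM in gut and 994, 2297 and 1083 CPM in fat body (-7.27 ± 0.92, adjusted p = 0.000234), or -8.73 without gut library 107. *DptA* (Diptericin A), an Imd target, varied more, with 1.47, 7.28 and 6.14 CPM in gut and 4.99, 94.6 and 22 CPM in fat body (-2.99 ± 0.95, adjusted p = 0.03), and its libraries overlapped. Without fat body library 102 it was at -1.42 and did not pass (adjusted p = 0.158). All 12 Bomanin and Daisho peptides, short Toll targets, were at least 4-fold lower and did not overlap (median -5.60). *BomT2* had 2.51, 2.94 and 2.83 CPM in gut and 384, 252 and 264 CPM in fat body (-6.75 ± 0.28, adjusted p = 1.01e-06). Of 14 thioester and haemolymph proteins 13 were lower, among them the clotting factor *fon* (-4.99), *Tsf1* (-4.32), the iron carrier of haemolymph, and *Idgf5* (-6.54). Haemocyte genes were also lower in gut, 10 of 12 with a sum of 224 to 257 CPM in gut and 526 to 713 CPM in fat body. *Hml*, a defining marker, was at 3.98, 9.96 and 4.57 CPM in gut and 37.9, 43.2 and 59.7 CPM in fat body. The part of haemocytes in the immune values was not tested.

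The peptidoglycan recognition proteins divided evenly, 5 of 11 higher and 5 lower. The amidases *PGRP-SC1b*, *PGRP-SC2* and *PGRP-LB*, which cleave bacterial peptidoglycan, were higher in gut: *PGRP-SC2* had 1418, 1615 and 2166 CPM in gut and 2.41, 3.32 and 8.12 CPM in fat body (8.53 ± 0.55), and *PGRP-SC1b*, with 46.3, 81.2 and 80.5 CPM in gut and 0 counts in fat body, was at least 610-fold higher. *PGRP-SC1a* and *PGRP-SC1b* are near-identical, so their reads may be shared. *PGRP-SA*, the receptor that starts Toll signalling, was lower in gut (-3.40), as were *PGRP-SD* (-3.18) and *PGRP-SB1* (-5.14), which is also an amidase. Of the Imd receptors, *PGRP-LC* at the membrane was lower (-1.16) and *PGRP-LE* inside the cell higher (1.62). Of 22 Toll and Imd signalling genes 11 were lower and 5 higher, against 28.4% and 25.6% of all genes. The upstream, mostly extracellular part of Toll was lower: *GNBP3* (-5.01), *SPE* (-4.94), *modSP* (-2.84), *spz* (-2.47) and *Tl* itself, with 8.17, 19.8 and 12.1 CPM in gut and 140, 104 and 90.6 CPM in fat body (-3.05 ± 0.34). *pirk*, an inhibitor of Imd, was higher in gut, with 78.3, 78.2 and 76.8 CPM against 2.41, 4.36 and 3.78 CPM in fat body (4.43 ± 0.24, adjusted p = 1.68e-06). *Rel*, the NF-kappaB factor of Imd, differed by 0.02 (adjusted p = 0.958), and of the Toll factors *dl* was higher (0.82) and *Dif* lower (-0.94).

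Genes of signalling around *pnt* were compared in the same way. Of 20 genes of EGFR ligands, the MAPK core and feedback 14 did not pass, 5 were lower and 1 higher, so that fewer were called than the 54.0% of all genes. Without gut library 107 or fat body library 103, 2 were higher, and with RLE scaling 4. *Krn*, an EGFR ligand of enterocytes, had 38.7, 45.6 and 51.8 CPM in gut and 19.6, 25 and 21.2 CPM in fat body (1.04 ± 0.18, adjusted p = 0.00166). *Egfr* had 16.5, 15.5 and 12.9 CPM in gut and 55.4, 58.5 and 90.7 CPM in fat body (-2.19 ± 0.24, adjusted p = 9.25e-05). The core kinases *Raf* (0.36), *Dsor1* (0.28) and *rl* (-0.20) and the feedback inhibitors *sty* (-0.20) and *aos* (-0.52) did not pass. *grk* (-1.82) and *stet* (-2.22), which act in the germline, were lower in gut. Of 19 insulin and TOR genes 8 were lower, 2 higher and none reached 4-fold, a share called close to the 54.0% of all genes. The number lower was 6 without fat body library 101, 5 without gut library 108, 4 without 109 or 103 and 3 without 102. *InR* had 27.0, 50.7 and 64.4 CPM in gut and 69.3, 88.8 and 89.6 CPM in fat body (-0.80 ± 0.30, adjusted p = 0.0564), and did not pass without fat body library 102 or 103 (adjusted p = 0.15 and 0.139). *ImpL2*, which binds and blocks insulin-like peptides, was lower in gut (-1.67). *Pi3K21B* (0.80) was not called without gut library 109 (adjusted p = 0.125).

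Of 23 families of related genes with at least 2 tested members, 10 had members called in both directions. The families were picked with earlier results known and 54.0% of all genes were called, so this count is a description. In some of these families the only call on 1 side was lost without some 1 library (*Hex-A*, *Vha100-1*, *Gs1*, *Act79B* and *Ctr1A*). The GATA factor *GATAe* was higher in gut, and *srp*, the GATA factor of fat body and blood cells, had 8.79, 13.5 and 8.98 CPM in gut and 31.0, 33.0 and 49.4 CPM in fat body (-1.85 ± 0.26, adjusted p = 0.000464). The NPC2 proteins, which carry sterols, ran from *Npc2e* with 3390, 2464 and 2966 CPM in gut and 3.27, 3.89 and 10.7 CPM in fat body (8.93 ± 0.59) to *Npc2h* with 3.77, 1.4 and 1.10 CPM in gut and 108, 164 and 257 CPM in fat body (-6.46 ± 0.52). *Npc2d*, *Npc2f* and *Npc2a* were higher, and *Npc2b* and *Npc2g* lower. Of the metallothioneins, which bind copper and other metals, *MtnB*, *MtnC*, *MtnD* and *MtnE* were higher by 4.01 to 6.23, while *MtnA* had 7554, 5040 and 5635 CPM in gut and 7846, 5630 and 8022 CPM in fat body (-0.24 ± 0.35, adjusted p = 0.614). The sugar transporter *sut2* was higher in gut (4.53) and the trehalose transporter *Tret1-1* lower (-3.26). Cytoplasmic *Act5C* had 1542, 1879 and 1953 CPM in gut and 233, 298 and 206 CPM in fat body (2.87 ± 0.26), and the muscle actin *Act57B* had 326, 514 and 444 CPM in gut and 309, 845 and 520 CPM in fat body, which did not pass. *Act88F* had 26 counts in gut and 1 in fat body. The perilipin *Lsd-1* was lower in gut (-4.57) while *Lsd-2* had 669, 1108 and 1089 CPM in gut and 967, 1151 and 1307 CPM in fat body (-0.26 ± 0.28). The lipophorin receptors did likewise, with *LpR2* at -3.64 and *LpR1* at 0.14. *Gs2* was higher (1.25) and *Gs1* lower (-0.61), and *Gs1* was not called without gut library 107 or fat body library 101 (adjusted p = 0.101 and 0.131). The call of *Ctr1A* (-0.36) was lost on leaving out any one of 5 of the 6 libraries, so the copper transporters are not shown to go both ways. In other families all tested members were on the fat body side: 6 of 6 Idgf growth factors, 7 of 7 odorant-binding proteins outside the head (*Obp99a* -6.14) and 3 of 3 transferrins.

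**Figure D4:**
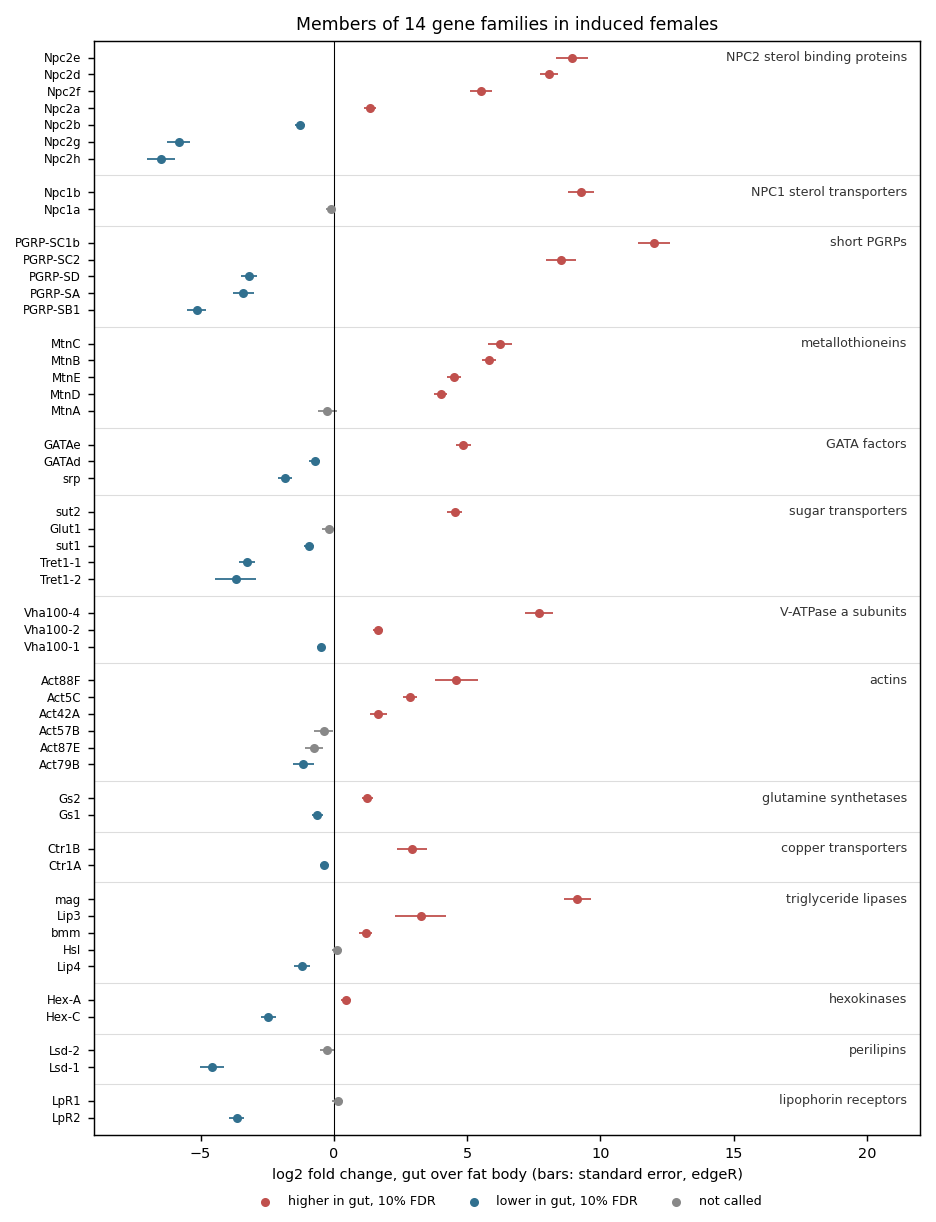
Log2 fold changes of gut over fat body in induced females (x axis, edgeR) with standard errors as bars for members of 14 gene families. NPC2 proteins span 8.93 to -6.46 and GATA factors 4.86 to -1.85, and grey points such as MtnA and Lsd-2 did not pass the 10% false discovery rate.

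Markers of other cells were measured beside the organs' own. Of 22 muscle contractile genes 11 did not pass, 8 were lower and 3 higher, near the 54.0% of all genes called, with 3823 to 4066 CPM in gut and 3894 to 6135 CPM in fat body. The number lower was 5 without gut library 108 and 4 without 109 or fat body library 102, and the number higher was 5 without 102. Of 9 neuronal genes 8 were lower in gut, and *elav* had 13.8, 12.9 and 13.2 CPM in gut and 61.4, 52.0 and 57.4 CPM in fat body (-2.1 ± 0.16). Of 20 eggshell genes none passed in either direction, and their sum varied more within organs than between them, at 67.0, 1171 and 1197 CPM in gut and 31.3, 996 and 87.3 CPM in fat body. Leaving out gut library 107 gave 6 higher, leaving out 108 gave 7 higher and 2 lower, leaving out fat body library 102 gave 5 higher, and leaving out 109 or 103 gave 2 higher. Germline genes were lower in gut, 17 of 18 (median -1.96), with a sum of 189, 443 and 309 CPM in gut and 1346, 1176 and 657 CPM in fat body. *vas*, a germ cell helicase, had 2.30, 9.58 and 4.41 CPM in gut and 57.0, 48.2 and 17.9 CPM in fat body (-2.86 ± 0.55). The ovary had been removed from the dissected abdomen, and its part in the genes lower in gut was not tested. Of 12 Malpighian tubule genes 6 did not pass, 4 were higher and 2 lower, a share called near the 54.0% of all genes. Their sum was 415 to 546 CPM in gut and 272 to 319 CPM in fat body. Without gut library 107, in which *Uro* was high, 8 were lower and 4 higher, and without any one of 108, 109, 102 or 103, 1 was lower.

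How far each organ's own genes were seen in the other could be read from genes with large differences. For 66 genes above 1000 CPM in gut and with log2 fold changes above 7, the median level in fat body libraries 101, 102 and 103 was 0.0652%, 0.138% and 0.284% of the mean gut level. For 49 genes above 300 CPM in fat body and with log2 fold changes below -5, the median level in gut libraries 107, 108 and 109 was 1.69%, 0.920% and 1.11% of the mean fat body level. Both sets were picked by the size of the difference, so these shares are a description. The cut-offs were stricter for the gut genes, which holds their shares lower, so the shares of the sets cannot be compared with each other. The order of the fat body libraries was that of their digestive protease sums, 234, 354 and 457 CPM. The 66 genes include digestive proteases such as *yip7* and *Jon65Aiv*, so the 2 orders are not independent. Folds of genes with few counts in 1 organ moved with these libraries. Among the 437 called genes of the lists, the families and the naming rule, the fold moved by more than 1.5 times for 100 on leaving out some 1 library: for 42 without 103, 22 without 108, 20 without 102, 11 without 107, 8 without 109 and 5 without 101.

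Genes that differed by at least 4-fold often lay next to each other. Of 984 genes higher in gut with a next tested gene on the chromosome, 363 (36.9%) had a next gene that was also at least 4-fold higher, against 9.96% of all genes. Of 879 genes lower in gut, 234 (26.6%) had a next gene at least 4-fold lower, against 8.88%. Runs of 4 or more such genes numbered 35 on the gut side, with 172 genes, and 20 on the fat body side, with 99 genes. The longest gut run held 11 genes on 2R from 11336840 to 11357537 and is the trypsin cluster from *lambdaTry* to *iotaTry*, with log2 fold changes of 6.77 to 10.13. Other gut runs were 7 genes on 3L from *LysB* to *CG33966*, 6 on 3L with *yip7* and 4 Jon65A genes, 6 on 3R with *CG31077* and 5 lipase genes, and 2 runs of 5 on 2R with the maltases. The longest fat body run held 9 genes on 2R from 18383949 to 18395282, the Bomanin cluster with *Idgf5* at its end (-6.75 to -5.12). A run of 4 on 3R from 16652446 to 16972236 held *modSP* and the Hox genes *Ubx*, *abd-A* and *Abd-B* of the posterior body. Positions are from the Ensembl annotation of the release 6 genome. On chromosome 4, 1 of 85 tested genes (1.18%) was at least 4-fold higher in gut and 7 (8.24%) at least 4-fold lower. Members of a run are often duplicates of 1 gene, and reads may be shared among close copies.

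The same organ contrast was made in uninduced females to see which differences were tied to induction. Of the 996 genes at least 4-fold higher in induced gut, 994 were also higher in uninduced gut, 951 of them past the 10% false discovery rate, and 865 also at 4-fold. Of the 893 genes at least 4-fold lower, 878 were lower in uninduced gut, 717 of them past the threshold, and 632 also at 4-fold. Over all 10005 genes, the uninduced contrast in the fit of 12 libraries called 1995 higher and 1829 lower in gut. The median log2 fold changes of these genes were 4.14 with induction and 3.90 without, and -3.07 with induction and -3.13 without. The interaction of organ and induction tests the difference itself over 12 libraries, and no gene passed it (0.00%) by edgeR at 10%. Within groups the biological coefficient of variation was 39.4% in uninduced gut and 43.5% in uninduced fat body. It was 26.9% in induced gut and 26.5% in induced fat body. The more variable uninduced libraries make the uninduced contrast and the interaction harder to call. By edgeR 342 genes had an unadjusted p under 0.05, and DESeq2 called 13 genes (0.130%). By edgeR 3 genes passed without induced gut library 107, 2 without uninduced gut library 110 and 1 without induced fat body library 101. None passed when uninduced libraries 106 and 112 were both left out.

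The 2 genes nearest the threshold were neighbours by number, *CG42704* and *CG42705*. *CG42705* had 15.8, 41.7 and 70.7 CPM in induced gut and 855, 717 and 728 CPM in induced fat body, against 0.139, 1.34 and 1.56 CPM in uninduced gut and 1119, 1156 and 753 CPM in uninduced fat body. Every induced gut library was above every uninduced one, and the interaction was 5.78 ± 0.82 on the log2 scale (adjusted p = 0.116, edgeR). *CG42704* had 41.2, 93.7 and 174 CPM in induced gut and 1627, 1418 and 1621 CPM in induced fat body, against 0.277, 2.20 and 4.50 CPM in uninduced gut and 2658, 2723 and 1788 CPM in uninduced fat body (interaction 6.12 ± 0.93, adjusted p = 0.116). *Arc1*, a capsid-like protein of neurons that carries RNA, had an organ difference that turned. It had 169, 175 and 197 CPM in induced gut and 128, 463 and 1031 CPM in induced fat body, against 200, 148 and 101 CPM in uninduced gut and 11.4, 14.7 and 17.7 CPM in uninduced fat body (interaction -4.95 ± 0.80, adjusted p = 0.145). Its induced organ difference of -1.58 passed the 10% threshold (adjusted p = 0.0581) although the libraries overlapped, and it did not pass without fat body library 103 (-0.67, adjusted p = 0.276) or without any one gut library. *CG15199* (interaction 2.70), *CG43255* (3.85), *CG6034* (2.27), *Timp* (2.1), the inhibitor of matrix metalloproteinases, and *CG18258* (5.61) had adjusted p-values of 0.361 to 0.862. All 8 genes were among the 13 called by DESeq2, with adjusted p-values of 7.6e-11 (*CG42705*), 7.88e-10 (*CG42704*), 5.73e-07 (*Arc1*) and 0.000675 to 0.0233 for the other 5. The highest adjusted p over the alternatives was 0.446 for *CG42704* and *CG42705*, 0.678 for *Arc1* and 1.0 for the other 5.

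**Figure D5:**
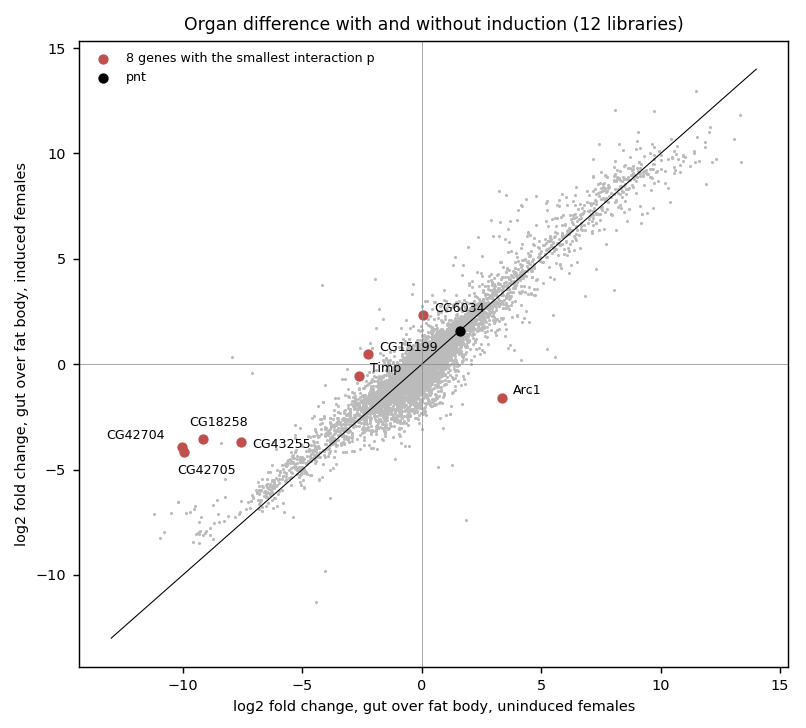
Log2 fold change of gut over fat body in uninduced females (x axis) and in induced females (y axis), 1 point per gene, from the edgeR fit of 12 libraries, with the line of equal values. The 8 genes with the smallest interaction p are in red, with CG42705 at -9.94 and -4.16 and Arc1 at 3.36 and -1.58, and pnt, in black, is at 1.6 on x and 1.59 on y.

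The medians of some lists were close with and without induction, and those of others were further apart. Digestive proteases had medians of 9.19 with induction and 9.08 without, Bomanin and Daisho peptides -5.60 and -5.93, and insulin and TOR genes -0.31 and -0.28. GstD genes had a median of 4.23 with induction and 1.37 without, and 3 of 7 had an unadjusted interaction p under 0.05. P450s had 2.54 with induction and 1.89 without, with 7 of 28 under 0.05. Enteroendocrine genes had 2.79 with induction and 5.08 without, with 2 of 11 under 0.05. Germline genes had -1.97 with induction and -0.53 without, with 3 of 18 under 0.05. Over all genes, 342 of 10005 had an unadjusted interaction p under 0.05 by edgeR. The lists given here were picked after their values were seen, and no list was tested. None of these genes passed adjustment over all genes. Of the 17 genes at least 4-fold different with induction whose sign turned without it, none passed the uninduced contrast (adjusted p of 0.327 or more). They included the germline genes *BicC* (-2.35 with induction, 1.17 without) and *shu* (-2.02 and 0.12), and *BicC* shared identical counts with *CG45084*, so the pair cannot be told apart.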

How the data were processed

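RNA was polyA-enriched, and libraries were made with a kit that adds molecular identifiers. As given in the study's methods and its submitters' notes, the authors removed duplicates by identifier, used HISAT2 for alignment and featureCounts for counting by gene. The deposited counts were used as raw counts. Sheets of variance-stabilised values made per organ were not used. Sheets were joined by gene identifier, and 9926 of 10005 genes had a symbol. In R 4.3.3, edgeR 4.0.16 (TMM over 6 libraries, at least 1 count, quasi-likelihood F test, Benjamini-Hochberg at 10%) gave the organ contrast, and 12 libraries the interaction and the uninduced contrast. The SE was the log2 fold change over the square root of F. Alternatives were DESeq2 1.42.0, limma 3.58.1 (voom), other scalings and filters, and leaving out each library. On simulated data with 200 changed genes edgeR called 145, 21 of them false, with 30% of 2-fold and 94% of 4-fold changes recovered. The changed genes were few of the 10005 and were not drawn from genes with low counts, whereas 54.0% of genes were called in the data. These figures therefore do not give the recovery or the false share of the organ contrast. Depth is given with the results. Ratios at 1 to 3 counts have exact 95% intervals. Genes named were *pnt* and ETS factors, the 12 largest differences per direction at 100 CPM or more without overlap, the 4 smallest p-values per list, family members and the 8 smallest interaction p-values. Others were chosen after their values were seen. All members and lists were chosen with earlier results of these data known. Promoter sequences were not analysed here.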

Additional observations from a re-analysis of the deposited data

How the results depend on the processing

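With library size alone in place of TMM, 1660 genes were higher in gut and 4809 lower, with a median moved by -0.48, *Hex-A* at -0.025, *Lpin* at -0.020, *GLaz* at -0.461, *Rheb* at -0.411 and *Zasp52* at -0.392, and the medians of heat shock (-0.13), spermatheca and oviduct (-0.19) and glycolysis genes (-0.27) turned below 0. Counts higher in gut ran from 2169 to 2769 and lower from 2242 to 2846 on leaving out 1 library. The interaction called 13 genes by DESeq2 and 0 to 3 on leaving out 1 library. Of 437 called genes that are members of the lists and families or named by rule, 373 kept their call in all 13 settings, and 34 of 41 lists kept the sign of their median. The median of peptidoglycan recognition proteins, -0.01, was 0.048 by edgeR with RLE scaling, 0.046 by DESeq2, and -0.084 to 0.139 without 1 library. Other medians that turned without 1 library were those of GstE (-0.125 to 0.037), cuticle and trachea (-0.633 to 0.133), heat shock (-0.137 to 0.405) and eggshell genes (-0.443 to 3.31, lowest without gut library 108). So did *Cp7Fc* (-6.44 to 5.75), *Fcp3C* (-1.48 to 2.27) and *Hsp68* (-2.75 to 1.05). The cause was not tested. No paired analysis was possible because the labels hold no replicate numbers and do not say which gut and fat body libraries share flies. A gene that did not pass is not shown to be equal.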
